A study of Mus musculus with 8 samples.

Results

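The BATF family comprises 3 genes in the mouse, Batf, Batf2 and Batf3, and all of them were found by symbol among the 19938 genes named by a probe set of their own. Each has 1 probe set: 10397359 for Batf (gene ID 53314, chromosome 12), 10460767 for Batf2 (gene ID 74481, chromosome 19) and 10352717 for Batf3 (gene ID 381319, chromosome 1). All 3 passed the filter on low signal that left 13357 genes for testing, and all were above it on every array. The arrays measured dendritic cell (DC) progenitors from the bone marrow of mice heterozygous for a Zeb2-GFP fusion reporter, an allele that every group carries. Common DC progenitors (CDPs) were sorted as Zeb2hi CDPs (3 arrays) and Zeb2low CDPs (3 arrays), and pre-CD8 DCs, precursors of the CD8a+ classical DC (cDC1), had 2 arrays. The labels name no treatment and give no age, no sort gates and no statement on pooled animals. The order Zeb2hi CDP, Zeb2low CDP, pre-CD8 DC used below is assumed, not given by the labels, and both of its steps use the same Zeb2low arrays.

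BATF proteins are small basic leucine zipper factors of the AP-1 group. They pair with JUN proteins, and the pairs bind DNA together with IRF4 or IRF8 at composite elements. In mice Batf3 is required for cDC1s, where it works with IRF8 to keep Irf8 transcription on in committed cells. Batf, better known from T helper and B cells, and Batf2, an interferon-inducible factor of macrophages, can stand in for Batf3 when it is missing.

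The 250 bases before the RefSeq start sites of Batf3 and Batf are shown because Batf3 changed between the sorted fractions and Batf did not pass the test, while Zeb2, for which the fractions are named, is a repressor that binds E boxes. Capitals mark E boxes (CANNTG, searched on both strands). Sequences are those of RefSeq for GRCm38.p6, which matched 2 of the 3 members, both on the + strand, at chr1:191098164-191098413 for Batf3 and chr12:85686470-85686719 for Batf.
Batf3: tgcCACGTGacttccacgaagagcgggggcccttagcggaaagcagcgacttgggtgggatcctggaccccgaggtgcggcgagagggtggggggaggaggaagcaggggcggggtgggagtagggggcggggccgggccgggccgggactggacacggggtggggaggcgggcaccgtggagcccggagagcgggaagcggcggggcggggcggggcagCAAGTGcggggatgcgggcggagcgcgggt
Batf: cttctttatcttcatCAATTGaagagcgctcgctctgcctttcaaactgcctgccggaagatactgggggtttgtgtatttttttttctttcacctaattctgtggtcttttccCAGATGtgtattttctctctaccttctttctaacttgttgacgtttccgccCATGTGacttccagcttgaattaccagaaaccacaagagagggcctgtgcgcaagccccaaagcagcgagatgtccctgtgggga
The Batf3 window held 2 E boxes, starting 247 and 30 bases before the start site, and the Batf window held 3, at 235, 136 and 85 bases. An E box occurs in 66.2% of the 32851 promoter windows of this length. The E box form CAGGTG, which ZEB2 is known to prefer, and which is 1 case of CANNTG, was in neither window and is in 17.2% of all. The AP-1 site TGANTCA (6.75% of all), the CRE TGACGTCA (1.55%), the ETS-IRF composite element (2.3%) and the NFIL3 site TTATGTAA (0.819%) were also in neither. Parts of CAGGTG shorter than the full E box were not searched for. The part AGGTG can be read in the Batf3 window, and its reverse complement CACCT in the Batf window. How common these are over all windows was not counted. The absence of CAGGTG therefore does not show that a window lacks a ZEB2 site. The 2 windows differed in base composition: G and C made up 76% of the Batf3 window and 46.4% of the Batf window, against a median of 52.4% over all windows.

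The labels were checked against marker lists. Arrays of 1 group correlated at 0.937 (pre-CD8 DCs) to 0.989 across genes, and 0.937 was exceeded by the correlation of pre-CD8 DC array 1 with 1 Zeb2low array (0.958) and of pre-CD8 DC array 2 with all 3 Zeb2low arrays (0.942, 0.955 and 0.966). Batf3 is given below with and without each pre-CD8 DC array. Flt3, the receptor that marks CDPs, was at 9.07 to 9.63 on all arrays. Of 7 progenitor markers 5 were lower in pre-CD8 DCs than in Zeb2hi CDPs and 1 (Kit) was higher, and the DC lineage markers had 5 of 6 genes higher in Zeb2low and in pre-CD8 DCs than in Zeb2hi CDPs.

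Batf3 rose from Zeb2hi CDPs to Zeb2low CDPs and was highest in pre-CD8 DCs. Its log2 signal was 6.25, 5.90 and 6.03 on the Zeb2hi arrays, 7.72, 7.61 and 7.55 on the Zeb2low arrays, and 8.18 and 8.94 on the pre-CD8 DC arrays. The 3 groups did not overlap and stood in that order, a pattern seen in 2.54% of the 13357 genes. Within its array the Batf3 probe set lay at the 62.3rd to 67.0th percentile of all probe sets in Zeb2hi CDPs and at the 88.1st and 93.2nd in pre-CD8 DCs. In bulk samples such as these, fewer cells of a type and less RNA per cell cannot be told apart.

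Of the 3 members Batf3 alone passed the test as higher in Zeb2low than in Zeb2hi CDPs. The differences of Batf and Batf2 were also positive but did not pass. Of all genes tested 14.8% passed in this comparison, 4.5% higher and 10.3% lower. The Batf3 arrays did not overlap between these fractions, as for 20.2% of genes with all Zeb2low arrays above. Its mean signal was 7.63 ± 0.09 (SD, n = 3) against 6.06 ± 0.18 (SD, n = 3), a log2 difference of 1.57 ± 0.20 (SE, limma adjusted p = 0.00323) and a 2.97-fold higher signal. Of all genes, 97.9% had a smaller absolute difference in this comparison. The call held without any 1 array, at differences of 1.49 to 1.67. In all, 1978 genes passed in this comparison, and 4065 when same-numbered CDP arrays were paired by a replicate block. The total fell to 521 without Zeb2hi array 2, 575 without Zeb2hi array 3, 1057 without Zeb2low array 2 and 1021 without Zeb2low array 3. Of the 1978, 601 were higher and 1377 lower, against 664 and 960 after quantile normalization and 371 and 2233 after centring on array medians, which moves this comparison by 0.16 on the log2 scale.

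From Zeb2hi CDPs to pre-CD8 DCs Batf3 was again the 1 member that passed, as higher. Of all genes 17.6% passed here, 6.51% higher and 11.1% lower. The pre-CD8 DC mean was 8.56 ± 0.54 (SD, n = 2), 2.50 ± 0.23 above Zeb2hi CDPs on the log2 scale (SE, adjusted p = 0.000391), or 5.66-fold. This put Batf3 at rank 94 of 13357 genes ordered from the largest increase. It was 2.88 without pre-CD8 DC array 1 (adjusted p = 0.000513) and 2.12 without array 2 (adjusted p = 0.00186).

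Between Zeb2low CDPs and pre-CD8 DCs Batf3 did not pass the test (0.93 ± 0.23, SE, adjusted p = 0.137, 95% interval 0.41 to 1.45), although both pre-CD8 DC arrays lay above all Zeb2low arrays, as they did for 12.4% of genes. No member passed in this comparison, where Batf3 was the 1 with an unadjusted p under 0.05, and 0.554% of all genes did (0.337% higher, 0.217% lower). The value depended on the pre-CD8 DC arrays, which differed by 1.69-fold for Batf3: it was 1.31 without array 1 (adjusted p = 0.0864) and 0.55 without array 2 (adjusted p = 0.192). The first step, from Zeb2hi to Zeb2low CDPs, and the second, from Zeb2low CDPs to pre-CD8 DCs, could not be told apart in size. Their difference was 0.64 ± 0.37 (SE, limma adjusted p = 0.382, 95% interval -0.20 to 1.48), a contrast chosen after the values were seen. It was 0.26 without pre-CD8 DC array 1 (adjusted p = 0.709), 1.02 without array 2 (adjusted p = 0.101) and 0.39 after centring on array medians (adjusted p = 0.557).

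All 11 neutrophil markers had positive differences over Zeb2hi CDPs, both in Zeb2low CDPs and in pre-CD8 DCs. Of these, 3 passed in Zeb2low CDPs (Lcn2, Ngp and S100a8) and 4 in pre-CD8 DCs (Lcn2, Ngp, Camp and S100a8). From Zeb2low CDPs to pre-CD8 DCs 8 had positive and 3 negative differences, with 0 past the test. None of the 11 was below the 40th percentile on every array. Their summed signal was 11001 to 21024 in Zeb2hi CDPs, 23397 to 48472 in Zeb2low CDPs and 29237 to 56390 in pre-CD8 DCs. Within pre-CD8 DCs it was higher on array 1, where Batf3 was lower. Of 4 granule protease genes 2 were lower than in Zeb2hi CDPs, both in Zeb2low CDPs and in pre-CD8 DCs. From Zeb2low CDPs to pre-CD8 DCs all 4 had positive differences (median 0.85), with 0 past the test. Of 9 cDC2 markers 7 were tested, and 3 were higher in Zeb2low and 4 in pre-CD8 DCs than in Zeb2hi CDPs. The 4 include Irf4, which passed the low-signal filter only through the pre-CD8 DC arrays. Of the plasmacytoid DC markers 7 were tested, with 4 and 2 higher and 0 and 1 lower. The T, NK and innate lymphoid markers had 3 and 2 of 4 higher, with Cd3g, Ncr1, Klrb1c and Gata3 below the 40th percentile throughout. B cell markers had 1 higher and 1 lower of 4 in both, mast cell markers 2 and 1 of 6 higher, erythroid markers 0 and 1 of 3 higher, and monocyte markers 1 and 2 of 8 lower. Over all genes 4.5% were higher and 10.3% lower in Zeb2low than in Zeb2hi CDPs, and 6.51% and 11.1% in pre-CD8 DCs. A count of 1 in such short lists is not read as a result. The part of cells that carry these markers in the Batf3 result was not tested.

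Batf, the founding member, had log2 signals of 6.32, 6.78 and 6.65 in Zeb2hi CDPs, 6.56, 7.06 and 6.84 in Zeb2low CDPs, and 6.91 and 6.86 in pre-CD8 DCs. The CDP groups overlapped, and array 1 was the lowest of both. Within number pairs the Zeb2low array was higher by 0.24, 0.28 and 0.20, and 32.5% of genes were higher in all 3 pairs. Both pre-CD8 DC arrays lay above the Zeb2hi arrays, as in 21.4% of genes. No Batf difference passed, nor did that between the CDP fractions with paired arrays (adjusted p = 0.168). Zeb2low exceeded Zeb2hi CDPs by 0.24 ± 0.18 (SE, adjusted p = 0.378), and pre-CD8 DCs exceeded Zeb2low CDPs by 0.06 ± 0.20 (SE, adjusted p = 0.921) and Zeb2hi CDPs by 0.30 ± 0.20 (SE, adjusted p = 0.355). The 95% interval of the last, -0.16 to 0.76, did not reach the Batf3 difference of 2.50.

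Batf2 gave 5.08, 5.00 and 5.13 on the Zeb2hi arrays, 5.27, 5.06 and 5.25 on the Zeb2low arrays, and 5.20 and 5.03 on the pre-CD8 DC arrays. All groups overlapped. Within number pairs the Zeb2low array was higher by 0.19, 0.06 and 0.12 (adjusted p = 0.445 with paired arrays), and the group difference changed sign after quantile normalization (-0.016) or centring (-0.038). The probe set lay between the 49.6th and 53.5th percentile of its array, where an RMA signal is no proof of expression. For Batf2 the Zeb2low CDP value minus the Zeb2hi CDP value was 0.13 ± 0.13 (SE, adjusted p = 0.53). Pre-CD8 DCs stood at -0.08 ± 0.15 against Zeb2low CDPs (SE, adjusted p = 0.837) and at 0.04 ± 0.15 against Zeb2hi CDPs (SE, adjusted p = 0.881), and none of these had a 95% interval beyond -0.42 or 0.43. Its spread within groups was small, with a residual SD of 0.10 against 0.22 for Batf and 0.27 for Batf3.

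**Figure D1:**
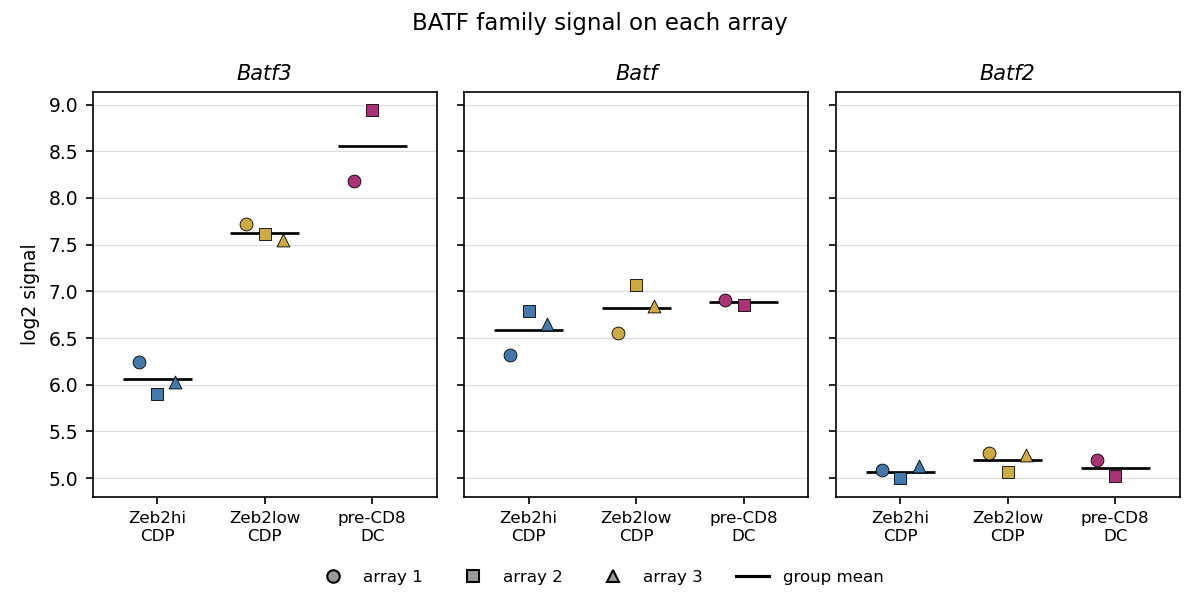
Log2 signal (y axis) of Batf3, Batf and Batf2 in the 3 sorted populations (x axis), with 1 symbol per array and a line at the group mean. The Batf3 groups do not overlap and run from 5.90 to 8.94, while Batf stays between 6.32 and 7.06 and Batf2 between 5.00 and 5.27.

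An exact permutation test over the 3 groups, which does not use the low-signal filter, was run once for each member. It permutes all 8 arrays freely and does not use the pairing of CDP arrays. For Batf3 95.7% of the sum of squares lay between groups (exact p = 0.00357, the smallest these 560 arrangements can give). For Batf (35.3%, exact p = 0.354) and Batf2 (32.4%, exact p = 0.382) the test did not pass. The members also differed from each other in their change. The log2 ratio of the Batf3 to the Batf signal went from -0.53 ± 0.42 (SD, n = 3) in Zeb2hi CDPs to 0.81 ± 0.32 (SD, n = 3) in Zeb2low CDPs and 1.68 ± 0.57 (SD, n = 2) in pre-CD8 DCs (exact permutation p = 0.00714). That of Batf3 to Batf2 went from 0.99 to 2.43 and 3.45 (exact permutation p = 0.00357). These 2 ratio tests were chosen after the values were seen, and a ratio of different probe sets carries meaning only as a change between groups.

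JUN proteins are the dimer partners through which BATF proteins bind DNA. Of Jun, Junb and Jund, 0 passed in any of the 3 comparisons by limma, and 1 had an unadjusted p under 0.05 (Junb, in pre-CD8 DCs over Zeb2hi CDPs). Jun was high throughout, at 9.56 to 10.88 on all arrays, and its largest difference was 0.33 ± 0.39 (pre-CD8 DCs over Zeb2low CDPs, adjusted p = 0.746). Junb was 6.53, 7.68 and 7.36 in Zeb2hi CDPs, 7.24, 8.26 and 7.52 in Zeb2low CDPs and 8.40 and 7.87 in pre-CD8 DCs. The CDP fractions overlapped, as did Zeb2low CDPs and pre-CD8 DCs, while both pre-CD8 DC arrays lay above all Zeb2hi arrays. Each Zeb2low array lay above the Zeb2hi array of its number. Its difference between the CDP fractions (0.49 ± 0.35, adjusted p = 0.347) passed when the same-numbered CDP arrays were paired (adjusted p = 0.0466). Jund differed by 0.29 ± 0.36 between the CDP fractions (adjusted p = 0.589) and by 0.85 ± 0.40 between Zeb2hi CDPs and pre-CD8 DCs (adjusted p = 0.18). The median JUN difference was 0.29, 0.46 and 0.85 for Zeb2low over Zeb2hi, pre-CD8 DCs over Zeb2low and pre-CD8 DCs over Zeb2hi, against medians of 0.03, -0.03 and -0.02 over all genes.

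FOS proteins, ATF3 and JDP2 are basic leucine zipper factors that also pair with JUN proteins. Of the 6 genes measured (Fos, Fosb, Fosl1, Fosl2, Atf3 and Jdp2) 1 passed, Fosl1 in Zeb2low over Zeb2hi CDPs, where 14.8% of genes passed. Its signals were 4.63, 4.74 and 5.21 on the Zeb2hi arrays, 5.39, 5.60 and 5.43 on the Zeb2low arrays, and 5.20 and 5.17 on the pre-CD8 DC arrays. The CDP fractions did not overlap. The difference of 0.61 ± 0.17 (adjusted p = 0.0476) was close to the threshold, passed in 1 of 8 fits without 1 array, and was lost after quantile normalization (adjusted p = 0.117) or centring on array medians (adjusted p = 0.122). Between Zeb2low CDPs and pre-CD8 DCs 0 of the 6 passed (Atf3 and Fos had an unadjusted p under 0.05), and over Zeb2hi CDPs 0 in pre-CD8 DCs (Atf3 and Jdp2 had one). The median difference of the 6 was 0.08, 0.91 and 0.97 in the order given for the JUN genes.

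Fos, Fosb and Atf3, which are immediate early or stress-induced genes, varied more within the CDP groups than Batf3 did. Within pre-CD8 DCs (n = 2) Batf3 varied most, with an SD of 0.54 against 0.27 for Fos, 0.29 for Fosb and 0.47 for Atf3. Atf3 read 6.97, 7.62 and 9.19 in Zeb2hi CDPs, 6.55, 8.06 and 8.54 in Zeb2low CDPs, and 9.51 and 10.18 in pre-CD8 DCs. Its pre-CD8 DC arrays lay above all CDP arrays, and the CDP fractions overlapped. The Atf3 difference was 1.92 ± 0.70 over Zeb2hi CDPs (adjusted p = 0.0943) and 2.13 ± 0.70 over Zeb2low CDPs (adjusted p = 0.248). Without Zeb2hi array 3 the first passed (2.55, adjusted p = 0.039). Fos (0.92 ± 0.51, adjusted p = 0.256) and Fosb (1.12 ± 0.71, adjusted p = 0.319) did not pass over Zeb2hi CDPs. With a replicate block over all arrays, whose pre-CD8 DC numbers did not pair, Atf3 passed over Zeb2hi (2.44, adjusted p = 0.00689) and Zeb2low CDPs (2.65, adjusted p = 0.0465), and Fosb over Zeb2hi CDPs (1.66, adjusted p = 0.0137). The residual SD was 0.997 for Atf3, 1.01 for Fosb and 0.713 for Fos, and 98.9% of all genes had a smaller one than Atf3, against 63.3% for Batf3.

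**Figure D2:**
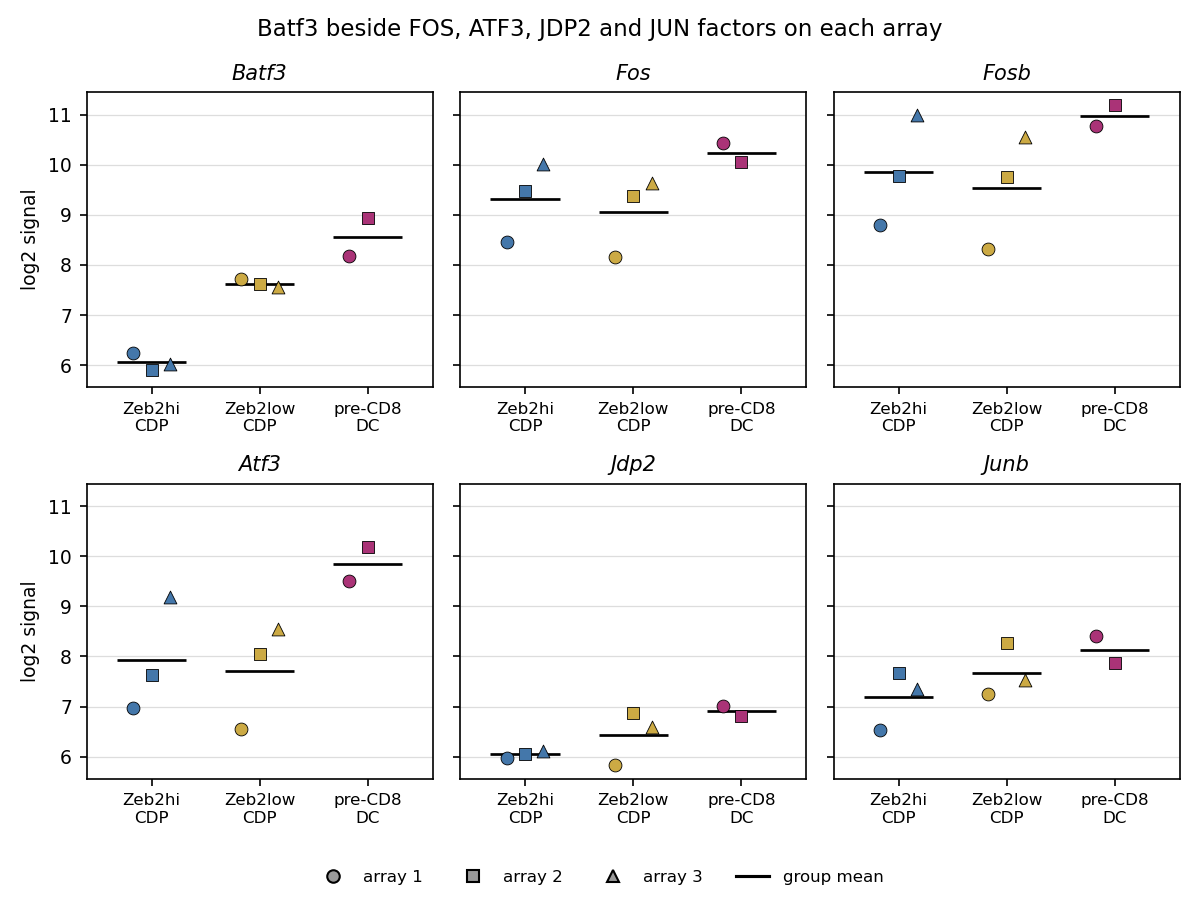
Log2 signal (y axis) of Batf3, Fos, Fosb, Atf3, Jdp2 and Junb by population (x axis), with 1 symbol per array number and a line at the group mean. Array 1 is the lowest CDP array for Fos, Fosb and Atf3 in both fractions, with 6.97 and 6.55 for Atf3, whereas the Batf3 arrays of a CDP fraction lie close together.

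Jdp2, a repressor that competes for JUN, is the nearest gene with a probe set on one side of Batf, and no other protein-coding gene lies between them in the RefSeq table. Fos lies beyond Jdp2 on the same side. Jdp2 was 5.98, 6.05 and 6.12 in Zeb2hi CDPs, 5.82, 6.86 and 6.58 in Zeb2low CDPs, and 7.01 and 6.82 in pre-CD8 DCs, and its Zeb2low array 1 was the lowest of all arrays. The pre-CD8 DC difference over Zeb2hi CDPs was 0.87 ± 0.27 (adjusted p = 0.0604), and it passed without Zeb2low array 1 (adjusted p = 0.00867) or array 2 (adjusted p = 0.0419). Batf3 has Atf3 on its chromosome, with Fam71a as the 1 protein-coding gene between them.

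Of the 6 neighbours with a probe set, 1 passed in Zeb2low and 1 in pre-CD8 DCs against Zeb2hi CDPs. These counts are near the shares of all genes that passed, 14.8% and 17.6%, and are not read as a result about the neighbours. Both times it was Arl2, a small GTPase gene beside Batf2, which fell by 1.26 ± 0.19 (adjusted p = 0.00568) and by 1.33 ± 0.21 (adjusted p = 0.00484). Fam71a, beside Batf3, differed by 0.73 ± 0.36 between the CDP fractions (adjusted p = 0.187) and passed with paired CDP arrays (adjusted p = 0.022). Nsl1, on the other side of Batf3, stayed between 6.26 and 6.76 on all arrays. It passed in no comparison.

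IRF4 and IRF8 are the factors that bind DNA beside BATF and JUN. Irf8, which specifies cDC1s, was at 9.40 to 10.67 on all arrays and passed in 0 of the 3 comparisons, with no unadjusted p under 0.05. Its value in Zeb2low minus Zeb2hi CDPs was -0.59 ± 0.28 (adjusted p = 0.173). It passed when CDP arrays were blocked by replicate number (adjusted p = 0.0208) and without Zeb2hi array 1 (-0.88, adjusted p = 0.0438), in the direction opposite to Batf3. Irf4, known for its role in cDC2s, read 3.83, 4.09 and 3.61 in Zeb2hi CDPs, 4.60, 4.21 and 4.44 in Zeb2low CDPs, and 5.05 and 5.19 in pre-CD8 DCs. Its groups did not overlap. Irf4 rose in pre-CD8 DCs over Zeb2hi CDPs (1.28 ± 0.19, adjusted p = 0.00363) but not, past the test, in Zeb2low over Zeb2hi CDPs (0.58 ± 0.17, adjusted p = 0.0561). It passed the low-signal filter only through the pre-CD8 DC arrays, so a difference was part of its being tested.

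**Figure D3:**
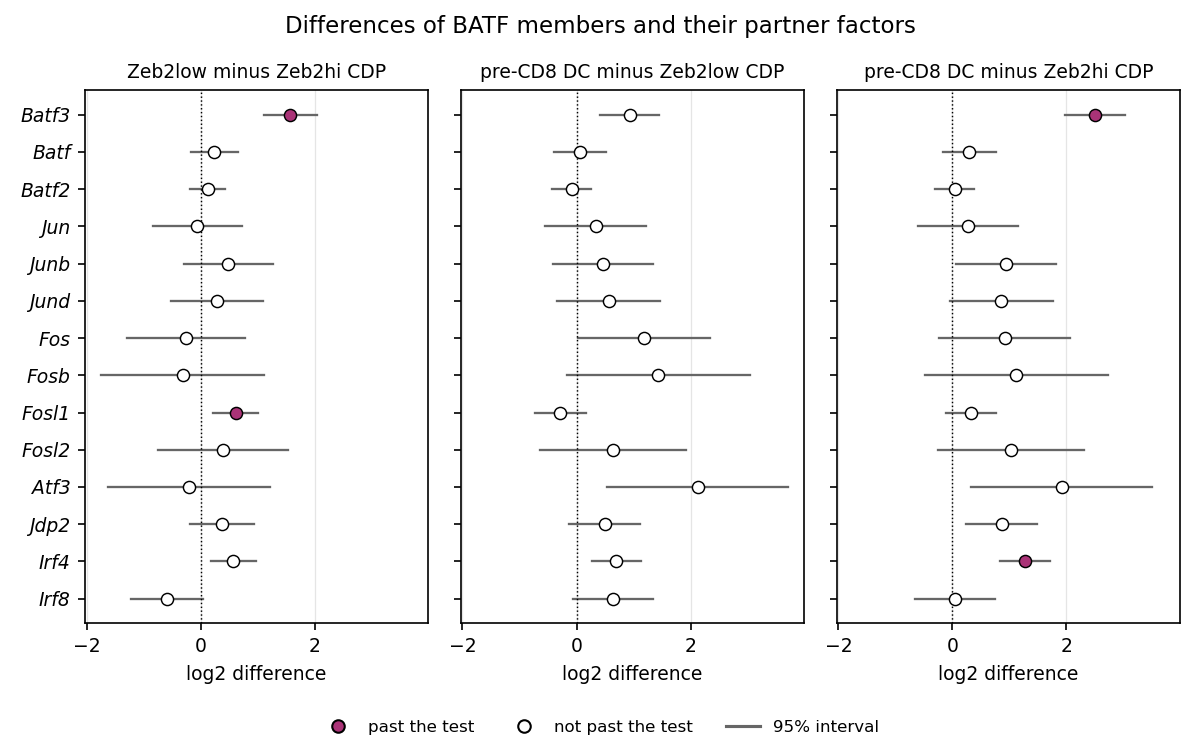
Log2 differences (x axis) with 95% intervals for the BATF members and the JUN, FOS, ATF3, JDP2 and IRF genes (y axis) in the 3 comparisons, with filled points for an adjusted p below 0.05. Batf3 lies at 1.57, 0.93 and 2.50, and Batf and Batf2 lie between -0.08 and 0.30.

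Other factors of cDC1 commitment were set beside Batf3. Of 11 such genes, 4 were higher (Id2, Bcl6, Nfil3 and Zbtb46) and 1 lower (Zeb2) in Zeb2low than in Zeb2hi CDPs. Of all genes tested, 4.5% were higher and 10.3% lower there. With CDP arrays paired, Etv6 also passed as lower (-0.44, adjusted p = 0.0398). Zeb2 is what the fractions are named for and so is no finding between them. Id2, an inhibitor of E proteins, had the largest of these differences (4.35 ± 0.28, adjusted p = 0.00018), and Bcl6, a repressor of the BTB zinc finger group, rose by 1.69 ± 0.25 (adjusted p = 0.00563). For Zbtb46, which classical DCs express, the rise was 0.61 ± 0.14 (adjusted p = 0.026), and its call was lost without Zeb2hi array 2 or 3 or Zeb2low array 2 or 3, with adjusted p from 0.0817 to 0.108. It was also lost after quantile normalization (0.45, adjusted p = 0.081), centring on array medians (0.44, adjusted p = 0.0661) or a replicate block over all arrays (adjusted p = 0.0606). From Zeb2hi CDPs to pre-CD8 DCs, Id2, Bcl6 and Zbtb46 rose, Zeb2 fell, and the ETS repressor gene Etv6 fell by 0.58 ± 0.16 (adjusted p = 0.0414). The Etv6 call held in 1 of 8 fits without 1 array and was lost after quantile normalization (-0.44, adjusted p = 0.105), with a trended robust prior (adjusted p = 0.0575), with a block over all arrays (adjusted p = 0.0819) and with these groups alone (adjusted p = 0.0543).

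Bcl6 and Zbtb46 shared the order of Batf3 over the 3 groups without overlap. Bcl6 ran from 6.07, 6.69 and 6.72 in Zeb2hi CDPs to 7.76, 8.61 and 8.19 in Zeb2low CDPs and to 9.75 and 9.45 in pre-CD8 DCs. Zeb2 fell in this order, from 9.45, 9.05 and 9.32 to 7.49, 7.69 and 7.86 and then to 6.93 and 6.53. Such a fall was seen in 3.29% of genes, but the CDP fractions are named for Zeb2, so its first step is no finding. Nfil3, a factor needed for cDC1 progenitors, did not keep the rising order: it read 8.04, 7.25 and 7.68, then 8.95, 8.75 and 8.88, then 8.15 and 7.92, so that the pre-CD8 DC arrays lay below all Zeb2low arrays, as in 15.4% of genes. Between Zeb2low CDPs and pre-CD8 DCs 0 of the 11 passed by limma, and 5 had an unadjusted p under 0.05 (Nfil3, Bcl6, Spi1, Zeb2 and Zbtb46). The median difference of the list was -0.13, -0.06 and 0.21 in the order of comparisons used for the JUN genes.

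Of 20 genes listed as marking cDC1s, 19 had a probe set and 17 passed the filter, which Itgae and Gpr33 did not. Zeb2low CDPs had 8 of 17 higher than Zeb2hi CDPs and 0 lower, with a median difference of 0.74 against 0.03 over all genes. They were led by Ifi205, an interferon-inducible gene (4.96 ± 0.17, adjusted p = 6.76e-06), the Toll-like receptor gene Tlr3 (3.22 ± 0.14, adjusted p = 2.23e-05), Naaa, a lysosomal amidase gene (1.85 ± 0.19, adjusted p = 0.00134), and Rab7b, a gene of endosomal transport (1.44 ± 0.15, adjusted p = 0.00169). The Tlr3 signal was below the filter on the Zeb2hi arrays, so a rise over them was part of its being tested. Gcsam (0.70 ± 0.30, adjusted p = 0.145) passed with paired CDP arrays (adjusted p = 0.00715).

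In pre-CD8 DCs 5 of the 17 were higher than in Zeb2low CDPs and 16 higher than in Zeb2hi CDPs, with 0 lower in either. Of all genes tested, 0.337% and 6.51% were higher and 0.217% and 11.1% lower in these comparisons. Xcr1, Snx22, Cd36 and Plpp1 passed the filter only with the help of the pre-CD8 DC arrays, and of the other 13 genes 4 and 12 were higher. Tlr3, counted among the 13, passed it through the Zeb2low and pre-CD8 DC arrays and on no Zeb2hi array. The 4 over Zeb2low CDPs were Gcsam (2.44 ± 0.34, adjusted p = 0.0219), Naaa (2.32 ± 0.21, adjusted p = 0.00296), Tlr3 (2.06 ± 0.15, adjusted p = 0.00134) and Rab7b (1.16 ± 0.17, adjusted p = 0.0269). The count of 5 fell to 2 without Zeb2hi array 2, Zeb2low array 2 or 3 or pre-CD8 DC array 1, and to 3 without Zeb2hi array 3 or Zeb2low array 1. Without 1 array Naaa and Tlr3 passed in 8 of 8 such fits, Gcsam in 3 and Rab7b in 1. Clec9a, a receptor for dead cells, did not pass in Zeb2low over Zeb2hi CDPs (0.16 ± 0.30, adjusted p = 0.726), where Batf3 rose. It rose in pre-CD8 DCs over Zeb2hi CDPs (2.06 ± 0.33, adjusted p = 0.00468) and was near the threshold over Zeb2low CDPs (1.90 ± 0.33, adjusted p = 0.0517).

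**Figure D4:**
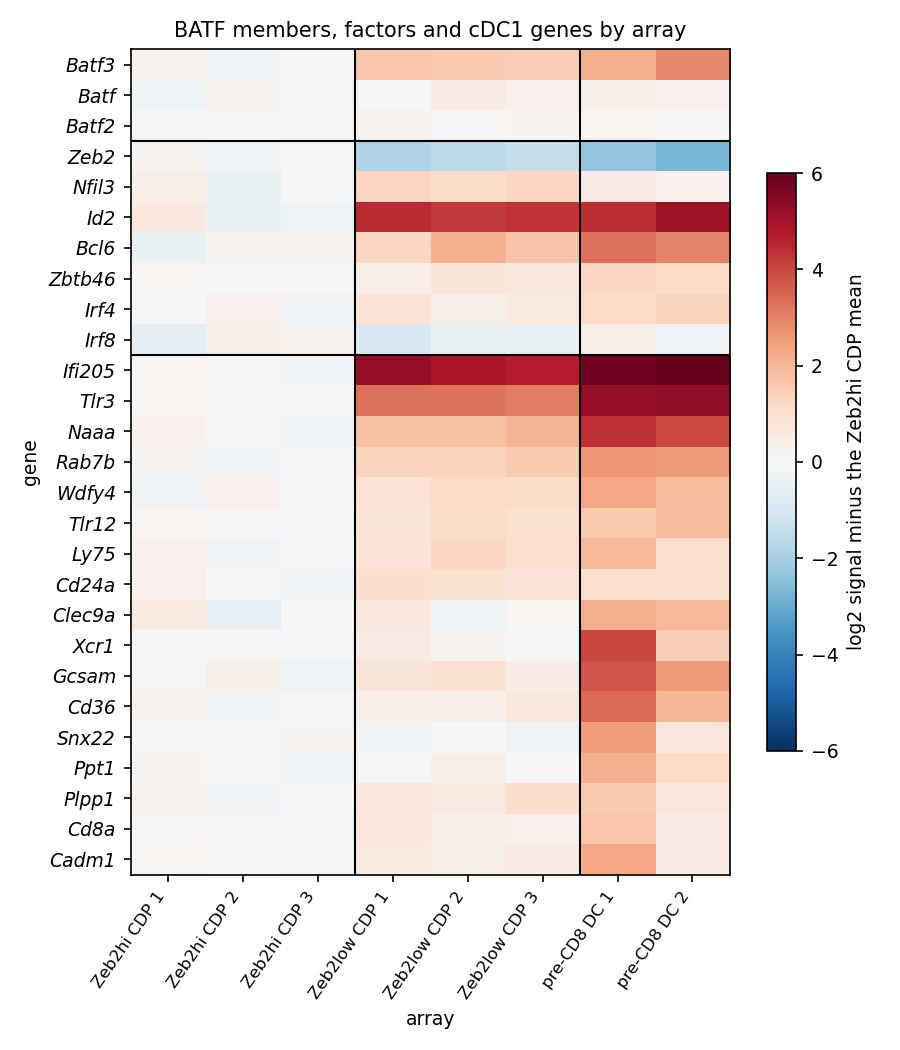
Log2 signal minus the mean of the Zeb2hi CDP arrays (colour) for BATF members, commitment factors and cDC1 genes (rows) on each array (columns). Batf3 deepens from Zeb2low CDPs to pre-CD8 DC array 2, while Xcr1, Cadm1 and Snx22 are higher on pre-CD8 DC array 1.

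Batf3 was lower on pre-CD8 DC array 1 (8.18) than on array 2 (8.94), while some cDC1 genes were higher on array 1. Of the 13 cDC1 genes that passed the filter on the CDP arrays alone, 9 were higher on array 1, 3 of them by at least 1 log2 unit. Of all 13128 genes that passed it on those arrays, 42.5% were higher on array 1 and 4.86% by at least 1 log2 unit. Xcr1 and Snx22 are not among the 13. Xcr1, the chemokine receptor that defines mature cDC1s, was 7.57 on array 1 and 5.03 on array 2, against 3.49 to 4.09 on the CDP arrays. Cadm1 was 6.73 and 4.91, and Snx22 6.87 and 5.07. Of the tested cDC1 genes 4 were lower on array 1: Tlr12 (6.19 and 6.46), Ifi205 (10.41 and 10.53), Tlr3 (9.19 and 9.31) and Cd24a (11.74 and 11.81). Markers of other cells differed between the same arrays: the macrophage gene C1qa was 7.16 on array 1 and 4.49 on array 2, and Lyz2 12.56 and 10.23. The summed signal of neutrophil markers was 56390 and 29237, and that of mast cell, basophil and eosinophil markers 1494 and 430. Summed signals were lower on array 1 for progenitor, plasmacytoid DC and T, NK and innate lymphoid markers. The comparison of these arrays has no replicate and no test.

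The genes most like Batf3 were those with the highest Pearson correlation of log2 signal over the 8 arrays, which share their groups, given as a description. They were Dapk1 (0.994), a kinase gene of cell death, Gpr35 (0.992), Ifi207 (0.991), Tmem51 (0.991), Cdk14 (0.991), Arid3b (0.991), Pid1 (0.989) and Dpf1 (0.989), and 343 genes exceeded 0.9. Arid3b, an ARID domain factor gene, rose from 5.56, 5.48 and 5.43 to 7.25, 7.30 and 7.25 and then to 8.17 and 8.51. Ifi207 went from 6.26, 5.60 and 5.89 to 8.08, 7.56 and 7.63 and then to 8.55 and 9.03. The genes most like Batf were Grk6 (0.977), Akt2 (0.975), Relt (0.971) and Jade2 (0.955), and those most like Batf2 were Zfp784 (0.957), Tarsl2 (0.928), Maneal (0.918) and Smim1 (0.898).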

How the data were processed

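Cells were sorted from bone marrow, and biotin-labelled cDNA from their RNA was amplified with a kit for picogram inputs, per the labels' protocols. The deposited intensity of each probe set is linear, from the values, and the submitters' processing notes name RMA and Affymetrix Expression Console, without versions. RMA gives no detection call. Values were log2 transformed here. Of 28853 probe sets, the 21789 that name 1 gene were used. Genes with at least 2 arrays above that array's 40th percentile were kept, by the probe set of highest mean, leaving 13357. Limma 3.58.1 in R 4.3.3 (lmFit and eBayes, two-sided, all 8 arrays in 1 fit with 5 residual degrees of freedom) gave differences ± SE. "Adjusted p" is Benjamini-Hochberg over all genes of a comparison, called at 0.05. The exact permutation test enumerated 560 assignments of arrays to groups. The number of arrays limits precision. The labels do not tie arrays to separate animals or sorting days: p-values cover only array-to-array spread, possibly technical.

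Groups and replicate numbers were read from sample titles. Deviations from the group means correlated between same-numbered Zeb2hi and Zeb2low CDP arrays (r = 0.478, 0.407 and 0.308 for numbers 1, 2 and 3). These arrays were therefore taken as pairs in alternative fits, from the values and not from a label. The main fit did not use the pairs. As the pairing was chosen from the same data, calls that passed only with it may be favoured by that choice. Pre-CD8 DC arrays did not pair with Zeb2hi arrays (r = -0.172 and -0.313 for numbers 1 and 2) or with Zeb2low arrays (r = -0.401 and -0.587). In simulated data of 13357 genes the Zeb2low against Zeb2hi fit found 53 of 100 genes changed by 1 log2 unit and 90 of 100 changed by 2, with 4 false calls. The fit of pre-CD8 DCs found 36 and 89 against Zeb2low CDPs (4 false) and 50 and 86 against Zeb2hi CDPs (12 false). The share of genes changed in the simulation was unlike the 14.8%, 0.554% and 17.6% that passed in the arrays. The simulated rates are therefore not the power of these fits. Alternatives changed the filter, normalization, array weights, prior, arrays in the fit and block. The members, the gene lists and the rule for named genes were chosen with earlier results of these data known. That rule takes all members, each JUN, FOS, ATF3, JDP2 and IRF gene listed, up to 4 genes per direction and comparison of the cDC1 lists, the genes most like each member and its nearest neighbours. Other genes named (Clec9a, Xcr1, Cadm1, Snx22, Tlr12, Cd24a, C1qa and Lyz2 by array) were singled out after their values were seen. Marker lists covered progenitors, the DC lineage, cDC2s, plasmacytoid DCs, neutrophils, granule proteases, monocytes, B cells, T, NK and innate lymphoid cells, mast cells and erythroid cells. Promoter windows are RefSeq's for GRCm38.p6. Gene coordinates are omitted because no source used here names the build behind the array annotation.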

Additional observations from a re-analysis of the deposited data

How the results depend on the processing

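The Batf3 rises over Zeb2hi CDPs kept their direction and passed under every alternative run, at 1.41 to 1.67 in Zeb2low CDPs and 2.43 to 2.56 in pre-CD8 DCs, and without 1 array at 1.49 to 1.67 and 2.12 to 2.88. The Batf3 step from Zeb2low CDPs to pre-CD8 DCs passed under none (adjusted p = 0.0864 to 0.327). The replicate block, over all arrays or over the CDP arrays, changed no call of a member (Batf3 in Zeb2low over Zeb2hi CDPs: adjusted p = 0.0166 and 0.00076). Fits that left 1 pre-CD8 DC array assumed that it varies like the other groups. Some differences that did not pass changed sign, and the cause was not tested. In Zeb2low over Zeb2hi CDPs, quantile normalization gave -0.016 for Batf2, 0.30 for Jun and 0.032 for Fos, and centring gave -0.038 for Batf2 and -0.0054 for Clec9a. In pre-CD8 DCs over Zeb2low CDPs, array weights gave -0.016 for Batf, centring gave 0.0065 for Batf2 and 0.027 for Arl2, and the replicate block over all arrays gave 0.0081 for Arl2. In pre-CD8 DCs over Zeb2hi CDPs, quantile normalization gave -0.019 for Batf2, centring gave -0.031 for Batf2 and -0.023 for Irf8, and array weights gave -0.15 for Irf8. The first step minus the second became -0.076 for Batf and -0.044 for Batf2 on centring and -0.014 for Batf2 on quantile normalization. Without 1 array, Zeb2low over Zeb2hi CDPs ranged from -0.32 to 0.28 for Jun, -0.030 to 0.64 for Jund, -0.69 to 0.18 for Fos, -0.85 to 0.30 for Fosb, -0.69 to 0.42 for Atf3 and -0.087 to 0.42 for Clec9a. Pre-CD8 DCs over Zeb2low CDPs ranged from -0.072 to 0.18 for Batf, -0.17 to 0.0018 for Batf2, -0.0034 to 0.57 for Jun, -0.34 to 1.62 for Fosl2 and -0.52 to 1.05 for Fam71a. Pre-CD8 DCs over Zeb2hi CDPs ranged from -0.045 to 0.13 for Batf2 and -0.24 to 0.32 for Irf8, and the step difference of Batf from -0.064 to 0.44 and of Batf3 from 0.26 to 1.02. Of all genes, 4467 passed in Zeb2low over Zeb2hi CDPs with array weights, 4065 with the replicate block over the CDP arrays, and 521 to 2219 without 1 array. Between Zeb2low CDPs and pre-CD8 DCs, 15 passed with the replicate block over all arrays, 16 with only these groups fitted and 20 to 117 without 1 array, and centring gave 60 higher and 23 lower in place of 45 and 29. Between Zeb2hi CDPs and pre-CD8 DCs, 1172 to 2776 passed without 1 array. In Zeb2low over Zeb2hi CDPs the FOS, ATF3 and JDP2 list had 0 genes past the test under no filter, the stricter filter, either scaling, the block over all arrays and the fit of only these groups, 2 with array weights and 0 to 1 without 1 array. Over Zeb2hi CDPs in pre-CD8 DCs it had 1 with array weights or only these groups, 2 with the block over all arrays (Atf3, 2.44, adjusted p = 0.00689, and Fosb, 1.66, adjusted p = 0.0137) and 0 to 1 without 1 array. Over Zeb2low CDPs that block gave 1 (Atf3, 2.65, adjusted p = 0.0465). The JUN list had 1 with the block over the CDP arrays, the commitment factors 8 with array weights, and the cDC1 genes in pre-CD8 DCs over Zeb2low CDPs 2 with the block over all arrays or only these groups fitted and 2 to 6 without 1 array.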
